A study of Mus musculus with 6 samples.

Results

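Cartilage, bone and tendon genes were examined in mesenchymal stromal cells (MSC) from mouse lung. The set holds 42 genes, of which 36 had a row in the table of 20645 genes. The members were selected on gene name from a list drawn up with the counts of these libraries known, above all their high level in 1 green library, so their values are given as a description. Of the 36 genes, 25 had enough counts to be tested and 11 did not. Cnmd, Epyc, Mia, Cytl1, Matn1 and Snorc had no row, so none of their counts are described, though some enter the promoter windows.

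All 6 libraries came from C57BL/6 mice of genotype Tbx4-rtTA/TetO-Cre/mT-mG that received doxycycline from embryonic day 6.5 to postnatal day 1. In such mice the promoter of Tbx4, a transcription factor of lung mesenchyme, drives a doxycycline-dependent activator of Cre, and Cre switches a membrane reporter from TdTomato to GFP. Lung was dissociated with enzymes and taken through flow cytometry, giving a red group (mT, TdTomato, 3 libraries) and a green group (mG, GFP, 3 libraries). Both groups carry every allele and had the same treatment. Green marks recombination at any time under doxycycline, not Tbx4 activity at harvest, and the age at harvest is not given in the sources used here. Whether the replicates are separate animals is not stated, and the spread behind each p-value may therefore be technical.

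Cartilage is a matrix of type II collagen fibrils, with types IX and XI collagen as minor components, filled with the proteoglycan aggrecan. The transcription factor Sox9, acting with Sox5 and Sox6, switches on the genes of that matrix in chondrocytes, whereas Runx2 and Sp7 are needed for osteoblasts and scleraxis (Scx) marks tendon cells. In the mouse airway, cartilage supports the trachea and main bronchi.

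Total counts ran from 16853561 to 19429138 per library. General mesenchymal markers (Pdgfra, Pdgfrb, Col1a1, Col1a2, Col3a1 and Vim, all 6 with a row) summed to 11940 CPM (counts scaled to the library total) in mG replicate 2 and to 20323 to 26969 CPM elsewhere. Epithelial markers (2 of 8 with a row) summed to at most 0.530 CPM and leukocyte markers (4 of 6) to at most 1.59 CPM. Endothelial markers (4 of 6) lay between 0.419 and 17.4 CPM. Chondrocyte markers (12 of 15) summed to 925, 407 and 620 CPM in mT replicates 1, 2 and 3, and to 1631, 5138 and 1889 CPM in mG. Of these sums, Col11a1 alone held 845, 381 and 538 CPM in mT and 1617, 1435 and 1864 CPM in mG. The higher sums in mG replicates 1 and 3 rested on that gene. Those 12 markers are all members of the set described here, and 11 were highest in mG replicate 2, against 24.5% of all rows. The same library was lowest in smooth muscle markers (6 of 6), with 2009 CPM against 5400 to 14921 CPM elsewhere. Its Tbx4 count of 121 was below the 839 and 564 of mG replicates 1 and 3. Lung mesenchyme markers (6 of 6, Tbx4 among them) summed to 163, 113 and 132 CPM in mG, and to 43.3, 8.08 and 28.5 CPM in mT. Of these 6 markers, 2 were highest in mG replicate 2. The part that these other markers have in the values below was not tested. In bulk samples, more cells of a type and more RNA per cell cannot be told apart.

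Where members share regulators, their promoters can be set side by side. The 250 bases before the transcription start were read for 30 of the 42 members, in 42 windows, from RefSeq on GRCm38.p6. The windows below are those of Acan (aggrecan), Col9a1 and Ucma, with 84.3%, 95.5% and 81.4% of their summed CPM in mG replicate 2, of Sox5, which was higher in every mG library, and of Cilp, which was lower in every mG library. They run 5′ to 3′ on the strand of the gene. Capitals mark the core letters of a Sox site (ACAATG) or of a Runx site (TGTGGT), either strand.
Acan, chr7:79052976-79053225, plus strand: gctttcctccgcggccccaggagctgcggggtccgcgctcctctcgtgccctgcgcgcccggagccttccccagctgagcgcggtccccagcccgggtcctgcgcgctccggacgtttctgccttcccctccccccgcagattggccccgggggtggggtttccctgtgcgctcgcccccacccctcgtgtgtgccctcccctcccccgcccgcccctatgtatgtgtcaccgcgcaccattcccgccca
Col9a1, chr1:24177360-24177609, plus strand: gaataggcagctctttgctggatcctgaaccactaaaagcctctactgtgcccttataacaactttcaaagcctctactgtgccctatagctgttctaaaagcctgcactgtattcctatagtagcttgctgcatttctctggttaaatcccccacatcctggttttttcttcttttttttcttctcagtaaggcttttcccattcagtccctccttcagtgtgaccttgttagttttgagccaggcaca
Ucma, chr2:4975872-4976121, plus strand: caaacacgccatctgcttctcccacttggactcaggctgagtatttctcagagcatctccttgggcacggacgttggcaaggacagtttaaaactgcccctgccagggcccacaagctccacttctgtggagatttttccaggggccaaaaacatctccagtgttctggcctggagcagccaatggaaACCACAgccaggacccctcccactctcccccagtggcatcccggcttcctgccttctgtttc
Sox5, chr6:143947107-143947356, minus strand: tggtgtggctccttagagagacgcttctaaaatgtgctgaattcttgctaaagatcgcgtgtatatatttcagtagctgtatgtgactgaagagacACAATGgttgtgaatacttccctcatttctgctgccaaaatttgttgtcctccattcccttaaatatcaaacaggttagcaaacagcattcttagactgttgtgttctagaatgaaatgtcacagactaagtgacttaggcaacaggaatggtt
Cilp, chr9:65264930-65265179, plus strand: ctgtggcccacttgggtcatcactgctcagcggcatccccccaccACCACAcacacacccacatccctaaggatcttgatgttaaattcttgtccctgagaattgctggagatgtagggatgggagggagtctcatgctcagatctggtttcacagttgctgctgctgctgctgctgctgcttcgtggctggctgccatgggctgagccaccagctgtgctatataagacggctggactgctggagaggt
The Sox5 window holds a Sox core, the Ucma and Cilp windows each hold a Runx core, and the Acan and Col9a1 windows hold neither. Over the members, 7 of 42 windows (16.7%) hold the Sox core, against 10.7% of all 32851 promoter windows. Sox6 and Epyc are each counted there with more than a single window. For members with a row, it is in 5 of 36 windows (13.9%). The Runx core is in 10 of 42 member windows (23.8%), against 14% of all windows. A match describes letters, not a bound site. Col2a1, Sox9 and Comp are named only.

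**Figure D1:**
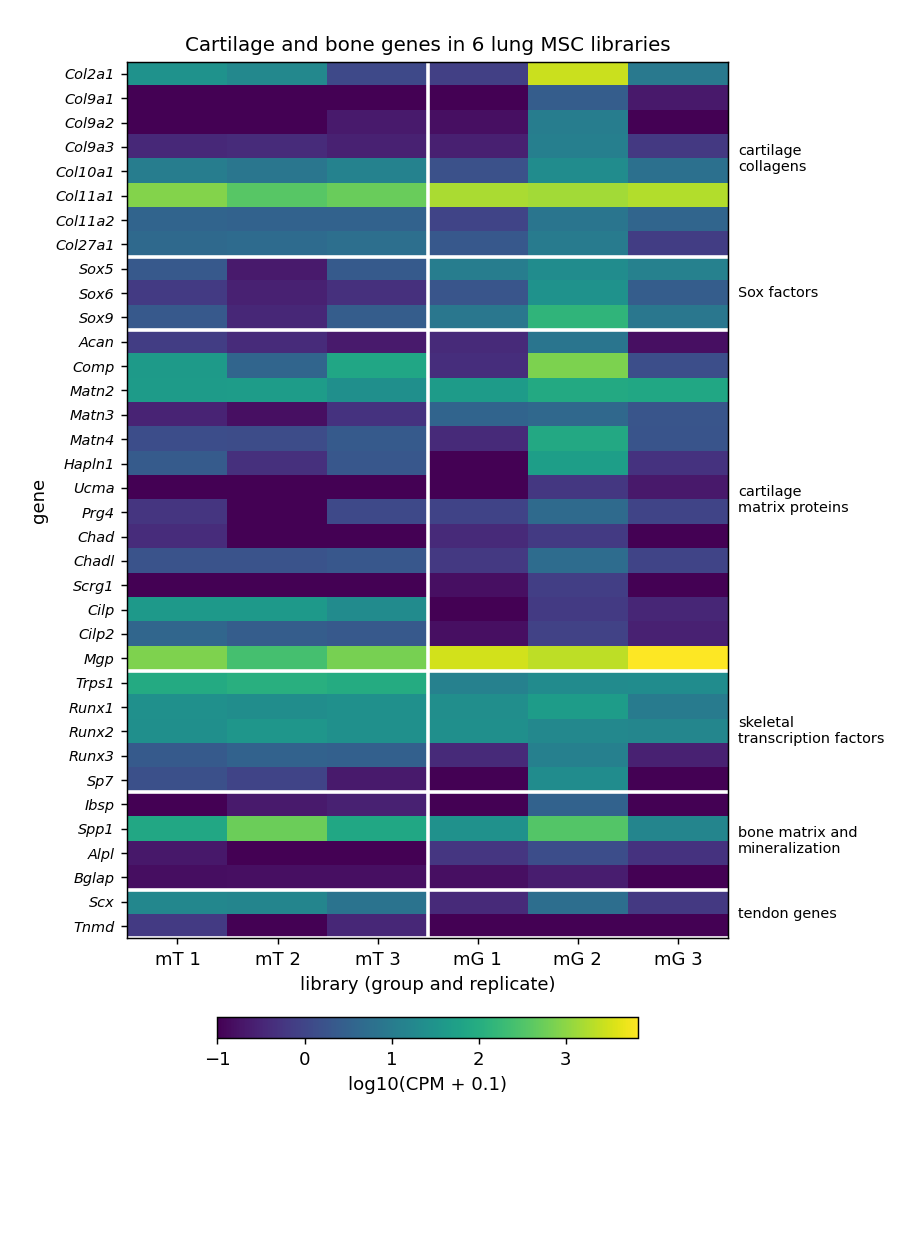
Level of the 36 members with a row (vertical axis, grouped by role) in the 6 libraries (horizontal axis), as log10 of CPM plus 0.1. The mG replicate 2 column is the brightest of its row for 27 of the 36 genes, while Cilp, Trps1 and Scx are bright in the mT columns.

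Of the 8 collagen genes, Col2a1 and the 3 type IX chains had over 75% of their summed CPM in a single green library, mG replicate 2, and the other 4 did not (0.94% of all rows in the table did). Col2a1, the main fibril collagen of cartilage, had 566, 297 and 18 counts in mT and 13, 58011 and 147 counts in mG, with replicates 1 to 3 given in that order here and below. Without mG replicate 2 both remaining green libraries lay within or below the red range. That library held 97.9% of the summed Col2a1 CPM, 94.8 times the CPM of the next library, and Col2a1 alone took 0.307% of its counts (Wilson 95% interval 0.305% to 0.310%, counting error only). The edgeR quasi-likelihood test across 13566 genes gave a log2 fold change of 5.84 ± 2.81 (SE, n = 3 per group; adjusted p = 0.406), and -1.79 (adjusted p = 0.521) without that library.

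Type IX collagen, which decorates type II fibrils, is built from 3 chains, and each followed the same layout at far lower counts. Col9a1 had 0 counts in every mT library and 0, 54 and 2 in mG. With 3 counts over the red group as the floor, the pooled mG counts were at least 17.5-fold higher, mostly through mG replicate 2. Col9a2 had 0, 0 and 2 counts in mT against 1, 238 and 0 in mG. Col9a3 had 5, 5 and 3 counts in mT against 3, 257 and 9 in mG. For all 3 chains mG replicate 2 stood alone while the other green libraries were in or near the red range, and none had enough counts for the test.

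Col11a1, a chain of the fibril-nucleating type XI collagen, differed from them. It had 16685, 6366 and 8974 counts in mT and 29664, 30632 and 31626 counts in mG. Every mG library was above every mT library, and the green libraries lay close together. Its mean level was 588 ± 236 CPM in mT and 1639 ± 215 CPM in mG (SD, n = 3). The fold change of 2.79 (log2 1.48 ± 0.33) did not pass the edgeR test (adjusted p = 0.120). Its partner chain Col11a2 had 70, 53 and 53 counts in mT and 16, 159 and 63 in mG, so the groups overlapped.

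Col10a1, the collagen of hypertrophic cartilage, had 219, 132 and 233 counts in mT against 27, 476 and 99 in mG. The fibrillar collagen gene Col27a1 had 88, 80 and 96 counts in mT against 37, 211 and 11 in mG. In both, mG replicate 2 was above and the other green libraries below all red ones. Of the 8 collagen genes, 7 were highest in mG replicate 2, against 24.5% of all rows. Of the 5 tested, 0 passed the edgeR test, against 0.907% of all genes tested. At an unadjusted p below 0.05 there was 1, against 1978 of all 13566 genes. DESeq2 also called 1, against 960 genes in the whole series. Col11a1 was the gene in both.

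All 3 Sox genes were higher in every mG library than in any mT library. Sox9, the master regulator of chondrocyte fate, had 43, 4 and 42 counts in mT and 149, 3097 and 139 counts in mG. Sox5 had 43, 2 and 37 counts in mT and 204, 464 and 224 in mG. Of its exon length, 9.25% overlaps the antisense gene Sox5os1, whose reads these unstranded libraries cannot set apart. Sox6 had 11, 3 and 6 counts in mT and 33, 604 and 44 in mG. The green group was thus apart from the red one with or without mG replicate 2, but that library held 87.2% of the summed CPM for Sox9, 83.8% for Sox6 and 43.0% for Sox5.

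The fold changes of the Sox genes were large and poorly determined. For Sox9 the log2 fold change was 5.02 ± 1.48 (adjusted p = 0.202) over all libraries and 2.29 (adjusted p = 0.185) without mG replicate 2, by edgeR. Sox6 went from 4.86 ± 1.28 (adjusted p = 0.163) to 2.53 (adjusted p = 0.0782). Sox5 changed less with that library, from 3.34 ± 0.85 (adjusted p = 0.154) to 2.99 (adjusted p = 0.143). None of the 3 passed the edgeR test. All 3 had an unadjusted p below 0.05, as did 1045 of all 13566 genes tested in that direction. DESeq2 called 1, Sox5, and left Sox6 and Sox9 without a p.

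**Figure D2:**
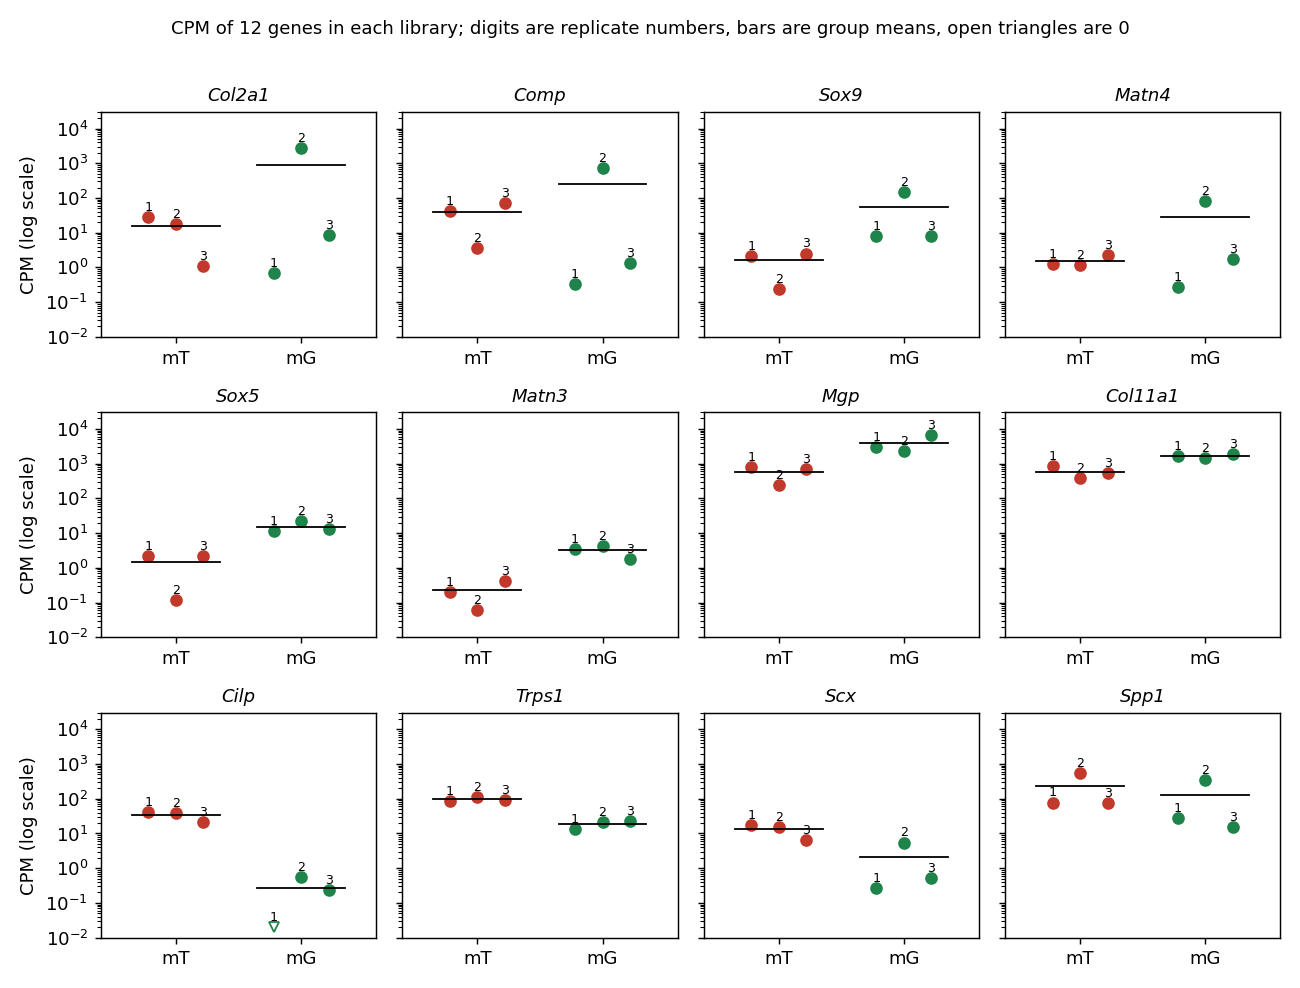
Level of single members in each library (points, CPM on a log scale) for the mT and mG groups, with replicate numbers above the points, bars at group means and an open triangle for 0. Sox9 separates the groups in all libraries, Col2a1 and Comp are high in mG replicate 2 alone among the green libraries, and Cilp and Trps1 are lower in every mG library.

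Among the matrix proteins, 1 fell and several shared the layout of Col2a1. Cilp, a secreted matrix protein of cartilage known to bind TGF-β, had 799, 641 and 361 counts in mT and 0, 12 and 4 in mG. The groups did not overlap, and every green library was near 0. Cilp fell by 6.89 ± 0.81 on the log2 scale in the edgeR test (adjusted p = 0.0234). Its relative Cilp2 had 77, 43 and 36 counts in mT and 1, 17 and 3 in mG, also without overlap, and its log2 fold change of -3.01 ± 0.83 did not pass (adjusted p = 0.180). Without mG replicate 2 the value for Cilp2 was -4.59 (adjusted p = 0.0353).

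Mgp (matrix Gla protein, an inhibitor of calcification) had the highest CPM per kilobase of exon of all members in 5 of the 6 libraries, mT replicate 2 being led by Spp1. It had 15538, 4146 and 11329 counts in mT and 56698, 48315 and 114083 in mG, every green library above every red one. The means were 571 ± 285 CPM in mT and 4026 ± 2372 CPM in mG (SD, n = 3), and the log2 fold change was 2.82 ± 0.61 (edgeR, adjusted p = 0.114). Matn3 (matrilin 3, a cartilage matrix adaptor) had 4, 1 and 7 counts in mT and 65, 90 and 30 in mG, again without overlap (log2 fold change 3.77 ± 0.69, adjusted p = 0.0770). For Mgp and Matn3, mG replicate 2 was not set apart from the other green libraries.

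Comp (cartilage oligomeric matrix protein, a collagen-binding pentamer) varied widely in both groups. It had 832, 60 and 1208 counts in mT and 6, 15863 and 23 in mG. The green group thus holds the highest library and the 2 lowest, with red in between. The log2 fold change was 2.66 ± 2.36 (edgeR, adjusted p = 0.705), and -5.57 (adjusted p = 0.119) without mG replicate 2.

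Hapln1, the link protein that ties aggrecan to hyaluronan, had 47, 6 and 32 counts in mT and 0, 1102 and 7 in mG. Matn4 (matrilin 4) had 25, 20 and 37 counts in mT and 5, 1763 and 29 in mG. Acan had 13, 5 and 2 counts in mT and 5, 161 and 1 in mG. In all 3 the high level was in mG replicate 2, at 21.7, 37.2 and 11.5 times the CPM of the next library for Hapln1, Matn4 and Acan.

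The remaining matrix members had few counts or small differences. Matn2 (matrilin 2) had 884, 777 and 413 counts in mT and 825, 1831 and 1257 in mG, with the groups overlapping. Prg4, the joint lubricant lubricin, had 9, 0 and 18 counts in mT and 15, 96 and 15 in mG. Chadl, a relative of chondroadherin, had 32, 27 and 33 counts in mT and 10, 105 and 15 in mG, and 19.5% of its exon length overlaps L3mbtl2, whose reads these unstranded libraries cannot set apart. Scrg1, Ucma and Chad reached at most 15, 11 and 12 counts, each time in mG replicate 2. Ucma had 0 in every mT library and 0, 11 and 2 in mG. Its pooled mG counts were at least 4.06-fold higher on a floor of 3 counts over the group, mostly through mG replicate 2. Of the 14 matrix genes with a row, 11 were highest in mG replicate 2, against 24.5% of all rows. Of the 10 tested, 1 passed, Cilp, against 0.907% of all genes tested.

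Trps1, a GATA-type repressor that acts in growth plate cartilage, fell in mG. It had 1731, 1866 and 1532 counts in mT and 243, 459 and 376 in mG. The groups were far apart and mG replicate 2 was no exception. The mean went from 97.1 ± 12.8 CPM to 18.97 ± 4.96 CPM (SD, n = 3), a fall of 5.11-fold (log2 -2.35 ± 0.23, edgeR adjusted p = 0.0154).

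The Runx factors took separate courses. Runx2, needed for osteoblasts and hypertrophic cartilage, had 506, 577 and 444 counts in mT and 467, 386 and 282 in mG. On the CPM scale all 3 mG libraries, at 25.5, 18.1 and 16.6, were below all mT libraries, the lowest of which was 25.6, but by little (log2 -0.53, adjusted p = 0.345). Runx1, a blood and mesenchyme regulator, had 517, 386 and 447 counts in mT and 453, 1010 and 171 in mG. Runx3, which acts with Runx2 in cartilage, had 44, 54 and 48 counts in mT and 5, 267 and 3 in mG. For Runx1 and Runx3 mG replicate 2 was the highest library and mG replicate 3 the lowest.

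Runx3 therefore depended on a single library for its direction. Its log2 fold change was 0.64 ± 1.40 over all libraries (edgeR, adjusted p = 0.907), and without mG replicate 2 it was -3.59 (adjusted p = 0.0320). Sp7 (osterix, which acts after Runx2 in osteoblasts) had 28, 15 and 2 counts in mT and 0, 475 and 0 in mG. All green Sp7 counts were in mG replicate 2, and without it mG was at least 9.97-fold lower on a floor of 3 counts over the group.

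Bone matrix genes were sparse apart from osteopontin. Spp1 (osteopontin, a secreted phosphoprotein also made by many soft tissue cells) had 1540, 9172 and 1266 counts in mT and 506, 7468 and 266 in mG. Replicate 2 was high in both colours, and mG was below mT within each number, at 0.354, 0.637 and 0.207 of the mT CPM. The log2 fold change of -0.84 ± 1.32 did not pass (edgeR, adjusted p = 0.860). With the replicate number as a block it was -1.47 ± 0.34 and did not pass either (edgeR, adjusted p = 0.149). Of the exon length of Spp1, 18.8% overlaps Gm42793.

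Ibsp (bone sialoprotein) had 0, 2 and 3 counts in mT and 0, 69 and 0 in mG, all green counts being in 1 library. Alpl, the phosphatase that enables mineralization, had 2, 0 and 0 counts in mT and 9, 27 and 7 in mG, higher in every green library but too low to test. Bglap (osteocalcin) stayed at 1, 1 and 1 counts in mT and 1, 3 and 0 in mG. It has near-identical copies between which reads may be split, and the copy Bglap2 had 2, 1 and 1 counts in mT and 0, 39 and 2 in mG.

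The tendon genes lay on the red side. Scx had 337, 259 and 111 counts in mT and 5, 117 and 9 in mG. On the CPM scale every red library was above every green one, though mG replicate 2 at 5.48 came close to mT replicate 3 at 6.65. The log2 fold change of -2.62 ± 1.08 did not pass (edgeR, adjusted p = 0.334), and without mG replicate 2 it was -5.02 (adjusted p = 0.0281). Tnmd (tenomodulin) had 11, 0 and 4 counts in mT and 0 in every mG library, at least 5.33-fold lower in mG on a floor of 3 counts over the group.

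**Figure D3:**
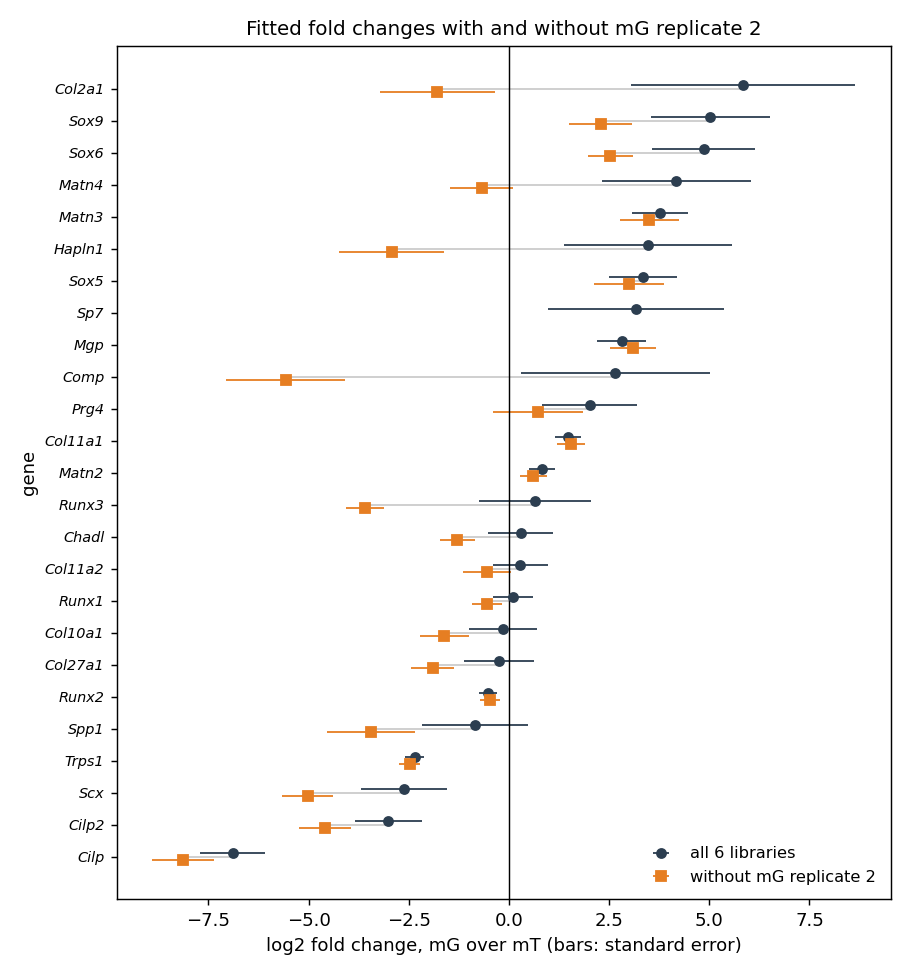
Log2 fold change of mG against mT (horizontal axis) for the tested members (vertical axis), with all 6 libraries and without mG replicate 2, bars showing the standard error. Cilp and Trps1 stay left of 0 in both fits, Matn3, Mgp and the Sox genes stay right of it, and Col2a1 and Comp cross from right to left.

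Over all libraries, 2 of the 25 tested members passed the edgeR test at an adjusted p of 0.05, against 0.907% of all genes tested, and both were lower in mG (0.708% of all genes). None of the 25 passed as higher (0.199% of all genes). In that direction 7 had an unadjusted p below 0.05, as did 1045 of all 13566 genes tested. DESeq2 called 5 members as higher, with Alpl, outside the 25, among them, and 476 genes in the whole series. A fold change above 0 was found in 17 members and below 0 in 8, with a median log2 value of 0.82 against 0.02 over all genes. Without mG replicate 2 the split was 8 above and 17 below, with a median of -1.29 against -0.01 over all genes. The sign differed between the fits for 9 of the 25: Chadl, Col11a2, Col2a1, Comp, Hapln1, Matn4, Runx1, Runx3 and Sp7. In that fit 5 members passed, Cilp, Cilp2, Runx3, Scx and Trps1, against 2.61% of all genes tested, and all 5 were lower in mG (1.66%).

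Groups did not overlap for 11 of the 25 tested members. Every mG library was above every mT library for 6 (9.97% of all genes tested), namely Col11a1, Matn3, Mgp, Sox5, Sox6 and Sox9, and below for 5 (10.8%), namely Cilp, Cilp2, Runx2, Scx and Trps1. The calls of Cilp and Trps1 did not rest on mG replicate 2, but both missed the threshold when any mT library or mG replicate 3 was left out, with adjusted p up to 0.111 for Cilp and 0.0793 for Trps1. The authors' deposited table called 19 of the 36 members at its own adjusted p of 0.05, against 6.05% of its rows. Those calls rest on a likelihood-ratio score over all 20645 rows, not on the quasi-likelihood test of 13566 genes used here. The authors' label for that comparison also names a RUV_UQ normalization, whereas TMM factors were used here. The 2 sets of calls are therefore not like for like. Among the called genes, Col2a1 had an adjusted p of 0.0346 and Sox9 one of 0.00107 in the authors' deposited table.

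**Figure D4:**
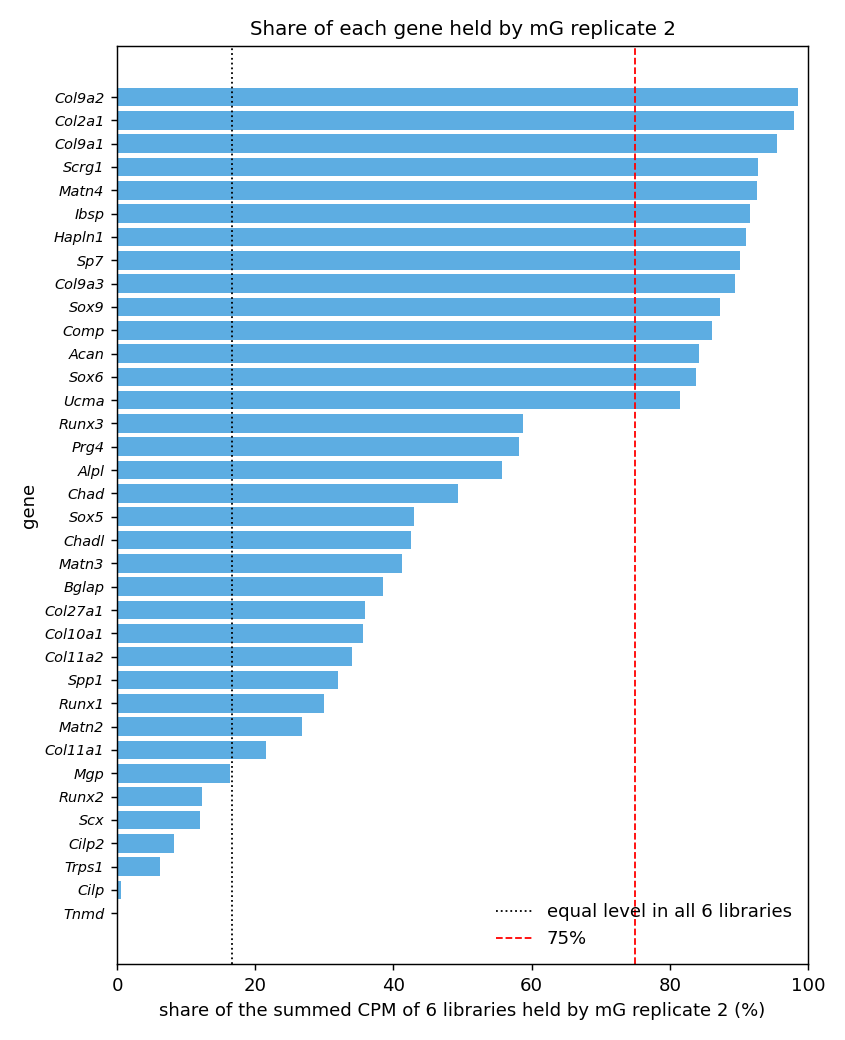
Share of each member's CPM, summed over the 6 libraries, that mG replicate 2 held (percent, horizontal axis) for the 36 members with a row (vertical axis). 14 members, from Ucma to Col9a2, lie above 75%, whereas Mgp, Col11a1, Trps1 and Cilp lie below 25%.

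Across the 36 members with a row, mG replicate 2 was the highest library for 27, against 24.5% of all rows, and exceeded the next library more than 10-fold for 13, against 0.426% of all rows. It held over 75% of the summed CPM for 14 of the 36, against 0.94% of all rows. These counts describe the library that was known when the list was drawn up. All 36 members together took 0.148% to 0.210% of the counts in mT and 0.466%, 0.921% and 0.812% in mG, more in every green library. The 34 members other than Mgp and Col11a1 took 0.503% of the counts in mG replicate 2, but 0.0162% and 0.0176% in mG replicates 1 and 3 and 0.0383% to 0.0860% in mT. With those 2 genes left out, a choice made after the values were seen, mG replicates 1 and 3 were thus below the red libraries.

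The members did not keep fixed proportions to each other. Per count of Comp there were 0.680, 4.95 and 0.0149 counts of Col2a1 in the mT libraries, and 2.17, 3.66 and 6.39 in the mG libraries. Red libraries thus ranged from mostly Comp to mostly Col2a1. Per kilobase of merged exon length, the leading members in mG replicate 2 were Mgp at 1907 CPM, Col2a1 at 294 CPM, Comp at 250 CPM, Spp1 at 212 CPM, Col11a1 at 113 CPM and Sox9 at 35.1 CPM. Acan, at 1.01 CPM per kilobase, and Col9a1, at 0.499, were far below Col2a1 in that library.

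Genes of the same biology outside the member list were counted from 4 further lists. Of all 13566 genes tested, 0.199% passed as higher and 0.708% as lower in the edgeR test. At an unadjusted p below 0.05, 1045 of them were higher and 933 lower, and DESeq2 called 476 and 484. Of 13 tested cartilage regulators and signals, 0 passed the edgeR test in either direction, with 4 at an unadjusted p below 0.05 and 1 called by DESeq2. The abundant members of that list were Prrx1 (log2 0.74, adjusted p = 0.424), Arid5b (-0.48, adjusted p = 0.430) and Zbtb20 (-0.55, adjusted p = 0.304). Hand2, a transcription factor of limb and heart patterning, had 102, 81 and 246 counts in mT and 2, 8 and 11 in mG, and was the gene that DESeq2 called. In edgeR its adjusted p was 0.0676, and 0.0460 with the replicate number as a block. Its exons overlap those of the antisense gene Hand2os1, whose reads these libraries cannot set apart. Named after their values were seen, the growth plate receptor gene Fgfr3 had 26, 46 and 36 counts in mT and 34, 700 and 21 in mG, and Nkx3-2, a cartilage repressor of Runx2, had 4, 0 and 1 against 1, 82 and 3. Most of that list did not share this layout. Of its 17 genes with a row, 6 were highest in mG replicate 2 (24.5% of all rows were). Only 2 of the 17 had over 75% of their summed CPM there (0.94% of all rows did).

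Of 21 tested further cartilage matrix and proteoglycan genes, 1 passed as lower and 0 as higher (3 higher at an unadjusted p below 0.05, and 2 by DESeq2). The former was Vit (vitrin, an extracellular matrix protein), with 756, 1226 and 485 counts in mT and 65, 99 and 87 in mG, which fell by 3.40 ± 0.40 on the log2 scale (adjusted p = 0.0234). The abundant genes of that list did not pass. The log2 value was 0.11 for the proteoglycan gene Bgn (adjusted p = 0.928), 0.59 for Prelp (adjusted p = 0.847), and -1.24 for Col6a3 (adjusted p = 0.152). The direction of Prelp rested on mG replicate 2, which had 52695 counts, and the value was -0.93 without it.

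Of 10 tested further osteoblast genes, 0 passed in either direction (5 lower at an unadjusted p below 0.05, and 5 calls by DESeq2). Sparc (osteonectin) had a log2 value of -0.24 and Atf4 one of -0.47, while Tnfrsf11b (osteoprotegerin, the decoy receptor that restrains osteoclasts) had -2.62 (adjusted p = 0.145), and -3.45 (adjusted p = 0.0384) without mG replicate 2. Smpd3, a sphingomyelinase needed for mineralization, had 2310, 3935 and 5625 counts in mT and 71, 266 and 456 in mG (adjusted p = 0.0840, and 0.0280 with the block). Of 7 tested further tendon genes, 1 passed, Col12a1, a fibril-associated collagen of tendon and fascia. It had 204316, 235437 and 242237 counts in mT and 36732, 41408 and 25463 in mG and fell by 2.84 ± 0.35 (adjusted p = 0.0281, and 0.0804 with the block). Fmod (fibromodulin) was also lower in every mG library, with 14655, 25183 and 8376 counts in mT and 230, 6769 and 411 in mG (log2 -2.96, adjusted p = 0.347). Without mG replicate 2 the value for Fmod was -5.66 (adjusted p = 0.0268).

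The genes outside the list most like Col2a1 were ranked by the ratio of mG replicate 2 to the next library, over the 9203 genes whose mean CPM over the 6 libraries had a log2 of 3 or more. A gene can pass that limit through mG replicate 2 alone. Col2a1 ranked 4 in that order, Matn4 9, Hapln1 10, Sox9 13 and Comp 18. Among the 12 leading non-members were 4 genes of the further matrix list, Susd5 (4585 counts against at most 5 elsewhere), the small leucine-rich proteoglycan genes Ogn (68736 against at most 3029) and Omd (6045 against at most 295), and the Wnt antagonist gene Frzb (1031 against at most 57). That list was chosen with earlier results of these data known, so its genes in this ranking are a description only. Of its 24 genes with a row, 5 had over 75% of their summed CPM in mG replicate 2 (0.94% of all rows did). S100b, a marker shared by cartilage and glia, had 2306 counts in mG replicate 2 and at most 143 elsewhere. With the limit set on the mean of log2(CPM + 1) instead, a choice added after seeing the data, 2 of the 12 non-members passed, Ogn and Omd, and Col2a1 and Comp ranked 1 and 4 of 9239 genes.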

How the data were processed

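Lung MSC were dissociated with enzymes and separated by reporter colour, and unstranded libraries were made from total RNA, per the labels' protocols. Tools named in the submitters' processing notes are edgeR 4.0, STAR, Trimmomatic 0.38, cutadapt 5.0 and FastQC 0.11.9. Build, annotation and read counter were not given in the sources used here. The authors deposited whole-number counts per gene for the 6 libraries. The RPKM columns are the authors' depth- and length-scaled values, per the file headers. The deposited columns named TMM hold a signal scaled from the counts. The authors' comparison columns are, per the file headers, a log2 fold change and mean level, a likelihood-ratio score, a raw and an adjusted p-value, and the p-value as −log10. The length the authors list equalled, for 97.0% of the 20566 rows matched to GENCODE M21, the exon lengths summed over all transcript models plus 1 base per exon. It was a median 1.54 times the merged exon length, so levels between genes are compared here per merged exon length and not by the RPKM.

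Counts were tested with the quasi-likelihood functions of edgeR 4.0.16 (R 4.3.3) on TMM-scaled libraries. Genes passed filterByExpr with its minimum count set to 10, which left 13566, and p-values were adjusted over these by Benjamini-Hochberg with a threshold of 0.05. The test was fitted on the whole table and checked on simulated data. The standard error is the log2 fold change over the square root of F. CPM are counts over TMM-scaled totals. The 36 rows without a symbol, with at most 0.0352% of counts in a library, stayed in under their identifier. Floors are 3 counts over a group, set against the pooled counts of the other group, and, like intervals, cover counting error only. With 3 libraries against 3 an exact permutation test cannot go below 0.1, so none is given. The members, the lists and the roles were chosen with earlier results of these data known. Every member may be named. Of each further list the text names genes that pass the test and the 3 with the highest mean CPM, and it names the 12 non-members most raised in mG replicate 2. The rule words this level as a mean log2 CPM, and it was computed as the log2 of the mean CPM. Other genes are named as chosen after their values were seen, or because the block changes their call. Exon overlaps were read from GENCODE M21 without coordinates. Further opposite-strand overlaps include 5.87% of the exon length of Runx2 (Runx2os1) and 6.07% of that of Col9a3 (Tcfl5). Promoter windows with annotated exon bases were not printed.

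Replicate numbers 1 to 3 occur in both groups. Deviations from the group means correlated by 0.223, 0.183 and 0.280 between libraries of the same number, each above 0.1, which meets the rule for numbers that pair samples. The main fit nevertheless has no block, and every value is from it unless the block is named. This pairing is read from the data, as no label explains the numbers. Alternatives were RLE and upper-quartile factors, no filter, at least 1 CPM in 3 libraries, DESeq2 1.42.0, limma-voom (limma 3.58.1), the replicate block, each library left out, and both replicate 2 libraries left out.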

Additional observations from a re-analysis of the deposited data

How the results depend on the processing

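The genes called numbered 123 (27 higher, 96 lower in mG), among them 2 members. DESeq2 called 960 (476 higher, 484 lower) and 8 members, but left 8 tested members without a p. Limma-voom called 17 as higher and 1 member, Trps1 (Cilp adjusted p = 0.0563). With 1 library or both replicate 2 libraries left out, the calls ranged from 20 to 362 (0 to 132 higher, 20 to 230 lower) and the members called from 0 to 5. With the replicate block 108 genes were called (35 higher, 73 lower), including the same 2 members, and no member's call changed. Both missed the threshold without both replicate 2 libraries (adjusted p = 0.0523 each). The count of members with over 75% of their CPM in mG replicate 2 was 14 under each scaling.

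The sign turned in at least 1 setting for 12 of the 25 tested members. With limma-voom the log2 values were -0.15 for Col11a2, -1.35 for Comp, -0.36 for Hapln1, -0.29 for Chadl, -0.11 for Runx1, -1.44 for Runx3 and -0.995 for Sp7. With the replicate block they were -0.10 for Col11a2, -3.90 for Comp, -0.62 for Hapln1, -0.34 for Chadl, -0.14 for Runx1 and -1.51 for Runx3. With 1 library or both replicate 2 libraries left out, values ranged from -1.79 to 6.59 for Col2a1, -1.80 to 0.36 for Col10a1, -0.58 to 0.76 for Col11a2, -1.93 to 0.25 for Col27a1 and -6.11 to 3.43 for Comp. They ranged from -0.84 to 4.75 for Matn4, -3.39 to 4.05 for Hapln1, -1.34 to 0.74 for Chadl, -0.62 to 0.51 for Runx1, -3.59 to 1.20 for Runx3 and -3.44 to 0.76 for Spp1. The cause was not tested. At these depths 0 counts in a library do not show absence, as a gene expected at up to about 3 counts can give 0. Counts below 3 are near that floor.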

Other observations

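Beside the cartilage genes, 7 other genes were among the 12 non-members most raised in mG replicate 2. The imprinted RNA H19 had 4242 counts there and at most 19 in any of the other 5 libraries. The laminin chain gene Lama1 had 1718 against at most 10, and Il1rn, the interleukin-1 receptor antagonist, 1232 against at most 16. The transcription factor gene Sim2 had 1454 counts against 26 in mG replicate 3 and 0 in the remaining libraries. The Wnt receptor gene Fzd9 had 1001 counts against at most 19, the G-protein regulator gene Rgs5 1494 against at most 31, and the glycogen regulator gene Ppp1r3c 1553 against at most 58. The ratio to the next library ran from 21.3 for Ppp1r3c to 177 for H19 on the CPM scale. None of the 7 passes a level limit set on the mean of log2(CPM + 1), since 5 of their 6 libraries are low.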
